A study of Drosophila melanogaster with 3 samples.

Results

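Deep intronic binding sites of the fly protein CG33213 were examined by ChIP-seq, which sequences the DNA that is immunoprecipitated with a chromatin protein. They were chosen by position alone. The summit of a peak had to lie more than 2000 bp from the nearest transcription start site (TSS), inside a transcript, and in no exon of any transcript. Of the 4417 peaks in the authors' optimal list, which keeps peaks by their irreproducible discovery rate (IDR), 571 (12.9%) met the rule and are called deep intronic peaks. The remaining peaks comprised 425 near intronic summits (501 to 2000 bp from a TSS, or 9.62% of the list), 462 intergenic, 102 exonic and 2857 promoter summits (within 500 bp of a TSS). Positions refer to dm6 and the annotation to Ensembl BDGP6.54 without transposable elements.

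The material was whole Drosophila melanogaster embryos, both sexes pooled, 0 to 24 h of age, from transgenic flies that carry CG33213 fused at its C terminus to eGFP. The annotation names this gene Boh1. An anti-GFP antibody was used for the immunoprecipitation per the description, while CG33213 stands in the antibody field. Chromatin was fragmented with a sonicator, and 3 biological replicates of this single group were deposited, all of the same transgenic line, so that no condition could be compared. A possible control experiment named in the labels was not analysed here. Whole embryos mix all cell types and stages, so binding in few cells and weak binding in many cannot be told apart. The lists hold no read counts, so the depth behind each peak is unknown.

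Introns of Drosophila developmental genes often hold enhancers, which are DNA elements that bind transcription factors and act on promoters at a distance. Long introns, and in particular the first introns of long genes, are where many such elements were mapped. Insulator proteins such as CTCF also bind at sites far from promoters, among them the boundaries of the bithorax complex, the cluster that holds the Hox genes Ubx, abd-A and Abd-B. The function of a peak in this assay is not known from its position.

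The sequences at deep intronic summits were mostly rich in A and T. Windows that reach 50 bp to either side of the summit are printed 5′ to 3′ on the plus strand. Capitals mark, on either strand, the 3 named words that were at least 1.5 times as frequent as in their background, the 5 words of 6 bases with the highest ratios and the CTCF-type words of 8 bases. Other words of the sequence results are not marked. The first set shows strong peaks in the introns of Tlk, Raf and Gug, with a G+C content of 31.7%, 39.6% and 20.8%.
Tlk (chrX:3742184-3742284): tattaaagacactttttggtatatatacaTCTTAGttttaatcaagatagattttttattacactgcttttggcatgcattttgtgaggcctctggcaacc
Raf (chrX:2297678-2297778): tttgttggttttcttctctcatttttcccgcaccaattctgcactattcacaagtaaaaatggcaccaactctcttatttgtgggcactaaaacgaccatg
Gug (chr3L:8458276-8458376): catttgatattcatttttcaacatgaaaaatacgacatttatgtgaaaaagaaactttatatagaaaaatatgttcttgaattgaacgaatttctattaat
The next set shows a strong deep intronic peak with each of the leading words of 6 bases, ACAGTG (gpp) and ACCTAT (Rbfox1). In the Rbfox1 window the word ACCTAT overlaps GTAAAC, read on the minus strand.
gpp (chr3R:6424105-6424205): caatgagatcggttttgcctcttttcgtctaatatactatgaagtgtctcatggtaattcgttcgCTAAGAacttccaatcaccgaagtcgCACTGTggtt
Rbfox1 (chr3L:10519091-10519191): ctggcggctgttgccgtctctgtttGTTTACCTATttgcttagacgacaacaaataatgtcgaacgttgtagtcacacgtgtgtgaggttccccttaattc
Another set holds a word of the CTCF type, either GGTGGCGC, a core of the CTCF site, or GATGGCGC or AGATGGCG, which share TGGCG with it. GATGGCGC and AGATGGCG also contain GCCAT, the word searched for the protein pho, on the other strand. The name CTCF type is therefore only a label. The window at lncRNA:CR44357 shows GGTGGCGC, and those at Eip75B and RapGAP1 are the 2 strongest of the peaks with a CTCF-type word and hold both of the others. Those at lncRNA:iab8 and lncRNA:bxd, 2 non-coding genes of the bithorax complex, were chosen after their values were seen.
lncRNA:CR44357 (chrX:7242057-7242157): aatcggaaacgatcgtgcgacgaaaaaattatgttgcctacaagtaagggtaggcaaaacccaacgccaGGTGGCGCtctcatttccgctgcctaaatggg
Eip75B (chr3L:18019780-18019880): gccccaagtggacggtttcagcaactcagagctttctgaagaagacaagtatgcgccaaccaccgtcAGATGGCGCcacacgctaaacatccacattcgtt
RapGAP1 (chr2L:7535045-7535145): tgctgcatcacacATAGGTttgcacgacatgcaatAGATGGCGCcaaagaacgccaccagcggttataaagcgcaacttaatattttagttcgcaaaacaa
lncRNA:iab8 (chr3R:16919213-16919313): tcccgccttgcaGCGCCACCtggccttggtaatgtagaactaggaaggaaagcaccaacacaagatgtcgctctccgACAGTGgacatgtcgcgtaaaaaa
lncRNA:bxd (chr3R:16748704-16748804): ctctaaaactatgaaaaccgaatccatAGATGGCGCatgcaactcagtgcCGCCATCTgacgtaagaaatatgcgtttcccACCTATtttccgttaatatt
The last set shows peaks with words of core promoters, the DNA replication-related element TATCGATA at Snap25 and the Motif 1 core GGTCACAC at l(3)80Fj.
Snap25 (chr3L:24231506-24231606): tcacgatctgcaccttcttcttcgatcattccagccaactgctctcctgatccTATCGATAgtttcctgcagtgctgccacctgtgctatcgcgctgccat
l(3)80Fj (chr3L:27980077-27980177): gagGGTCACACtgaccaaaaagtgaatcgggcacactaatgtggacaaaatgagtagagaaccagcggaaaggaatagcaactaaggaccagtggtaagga

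The strongest deep intronic peaks lay in genes of several kinds, and all ranked high in every replicate. Because the score of the peak caller has its own scale in each list, strength is given as a rank within the list, with 1 for the strongest peak. The peak of highest score lay in the first intron of Lrch, which encodes a cytoskeletal scaffold protein with leucine-rich repeats. Its rank was 33 in the optimal list. Replicates 1, 2 and 3 gave it ranks of 13, 110 and 39. The next stood in the first intron of Tlk, a kinase of chromatin assembly (X, 3742234), with ranks of 32, 50 and 58. Raf, the kinase that relays Ras signals from receptor tyrosine kinases, followed (X, 2297728) with ranks of 68, 55 and 53. CG32486 (3L, 3060821) ranked 155, 66 and 50. These 4 were the deep intronic peaks among the 100 strongest of the optimal list, and replicate 2 placed the Lrch peak lowest while replicate 1 placed it highest.

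Further down stood regulators of chromatin and of signalling. The peak in Gug, which encodes a corepressor of nuclear receptors (3L, 8458326), ranked 108 in replicate 1 and 210 in replicate 3, and higher than either in replicate 2. The one in JIL-1, a histone H3 kinase (3L, 11084791), ranked 119, 163 and 367 in replicates 1, 2 and 3. The epidermal growth factor receptor (EGFR) pathway was present through S, which is needed for export of its ligands (2L, 1072378), with ranks of 139, 301 and 150, and through aos, its secreted inhibitor (3L, 16480559), with ranks of 178, 308 and 262. The aos peak also lay inside CG33158. The peak in ush, a cofactor of GATA factors (2L, 485859), ranked 128, 270 and 219, and that in Hr4, a nuclear receptor of the ecdysone response (X, 1947750), 142, 242 and 330. In fz, the Wnt receptor of planar polarity, the peak lay 22181 bp from the nearest TSS (3L, 14304070) and ranked 145, 556 and 383.

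The remaining hosts of the 20 strongest peaks were babos, CG12769, osp, lncRNA:CR44320, upSET, rdx, eff, Eip75B and Rbfox1. Of these, upSET encodes a chromatin protein, rdx an adaptor that targets the Hedgehog effector Ci for degradation, eff a ubiquitin-conjugating enzyme, Eip75B an ecdysone-induced nuclear receptor and Rbfox1 a splicing factor. The widest spread as a plain difference of ranks was at lncRNA:CR44320 (3R, 26228219), which ranked 118, 730 and 236 in replicates 1, 2 and 3. The lowest single rank was 774, for Rbfox1 in replicate 2, so each of the 20 lay well inside the 4417 strongest peaks of every replicate.

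**Figure D1:**
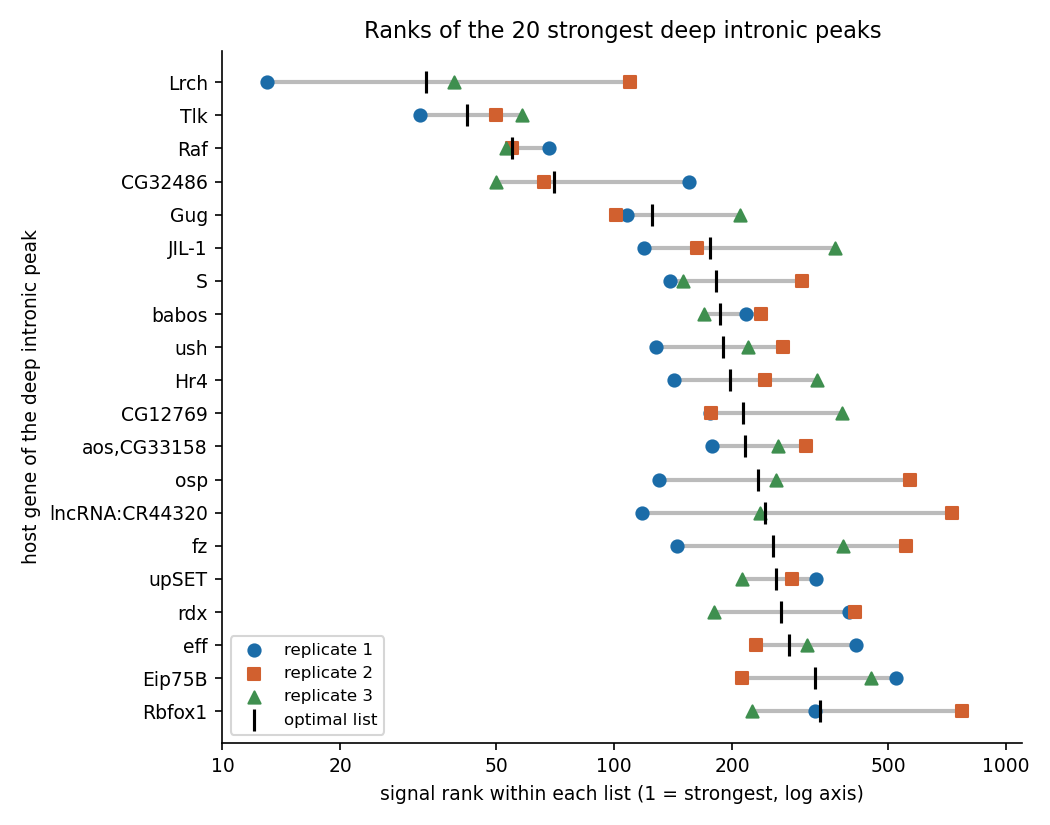
Signal ranks of the 20 strongest deep intronic peaks, labelled by host gene, in the lists of replicates 1, 2 and 3 (points) and in the optimal list (black bars), on a log axis where 1 is the strongest peak. Ranks ran between 13 and 774 in the replicates, with the tightest set at Raf (53 to 68).

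Deep intronic peaks as a class had a lower median strength than promoter, near intronic and intergenic peaks in every replicate. In the 4417 strongest peaks of each replicate, 568, 531 and 574 summits were deep intronic in replicates 1, 2 and 3. Their median signal percentile, counted within the replicate so that 100 is the strongest, was 42.6, 44.1 and 43.9, against 51.8, 52.1 and 53.2 for promoter summits. The difference averaged -8.78 percentile points (SD 0.717, n = 3) and was negative in 3 of 3 replicates. An exact two-sided paired sign-flip test gave p = 0.25, the smallest p that 3 replicates allow. Against near intronic summits the difference averaged -5.22 (SD 2.31) and against intergenic summits -4.89 (SD 2.12), also negative in 3 of 3 replicates each, with the same exact p of 0.25. In the optimal list the median rank was 2622 for deep intronic peaks, 2189 for near intronic, 2118.5 for intergenic and 2143 for promoter peaks. A total of 19.3% of the deep intronic peaks were in the strongest 25% of the list and 32.4% in the weakest 25%.

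Replicates shared a smaller part of these peaks than of promoter peaks. Among the deep intronic peaks of the optimal list, 313 (54.8%) had a summit within 150 bp among the 4417 strongest peaks of all 3 replicates, against 62.4% of all optimal peaks. A further 165 were found in 2 replicates, 91 in 1 replicate and 2 in none. Taking each replicate's own deep intronic peaks, 55.1%, 59.3% and 54.4% in replicates 1, 2 and 3 were found in both other replicates. The same shares were 64.5%, 64.2% and 66.3% for promoter summits and 66.1%, 64.0% and 62.5% for intergenic summits. The difference from promoters averaged -8.72 percentage points (SD 3.60, n = 3, negative in 3 of 3 replicates, exact two-sided sign-flip p = 0.25). From near intronic summits it averaged -2.48 points (SD 3.92), and replicate 2 went the other way with 1.61 (exact p = 0.5).

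The gap in agreement moved with strength. Within the strongest 25% of each replicate's peaks, 98.8% ± 1.35 of deep intronic and 97.7% ± 0.456 of promoter summits were found in both other replicates (SD, n = 3). Within the next 25% the shares were 74.7% ± 4.18 and 77.0% ± 2.18, within the one below 43.4% ± 6.36 and 50.2% ± 1.08, and within the weakest 24.9% ± 1.92 and 29.9% ± 1.04. With only the 2000 strongest peaks of each replicate the mean difference was -1.35 points (exact p = 0.75). In the optimal list all 100 of the 100 strongest deep intronic peaks were found in all replicates, and 2 of the 100 weakest were. By 25% parts of that list, from the strongest down, deep intronic shares found in all replicates were 100%, 95.0%, 49.0% and 6.49%. For promoter peaks they were 99.9%, 90.6%, 52.3% and 7.28%, so the difference changed sign between the stronger and the weaker parts. Near intronic and intergenic peaks stood at 100% in the strongest part and at 5.36% and 6.45% in the weakest. The list of each replicate with 30000 entries held a summit within 150 bp of 567, 565 and 565 of the 571 peaks, at a median distance of 13, 16 and 15 bp in replicates 1, 2 and 3. Over those peaks, rank in the optimal list and rank in the replicate had a Spearman rho of 0.823, 0.830 and 0.825. The optimal ranking was made from the same libraries, and peaks are not replicates.

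**Figure D2:**
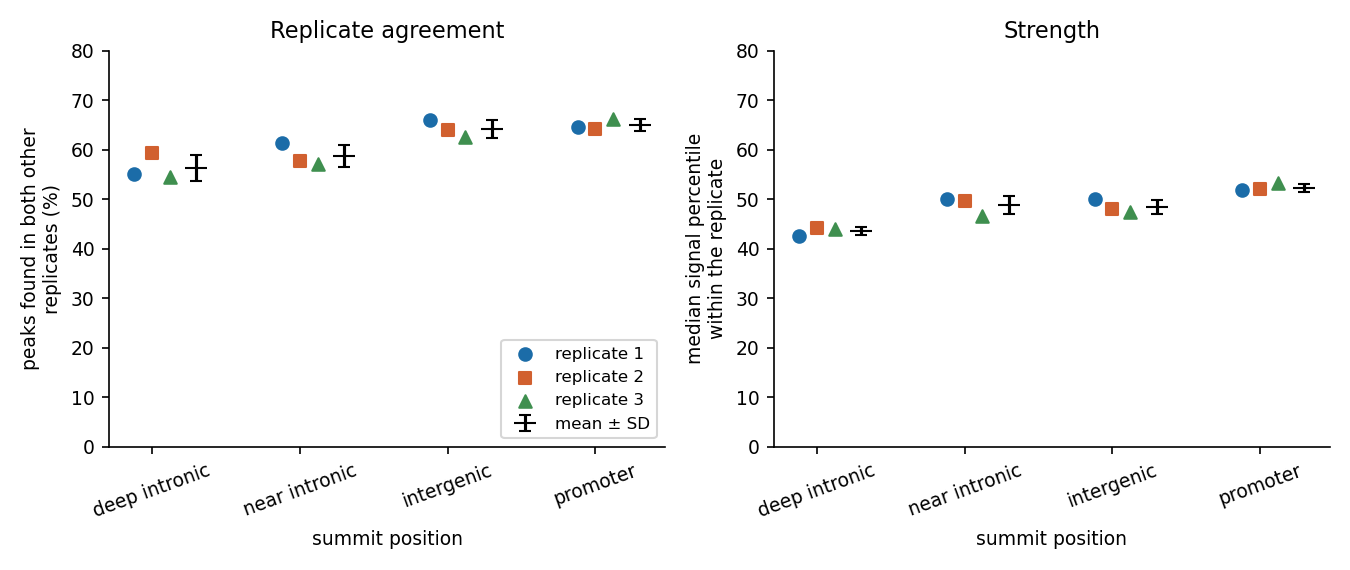
Share of each replicate's peaks found within 150 bp in both other replicates (left, %) and median signal percentile within the replicate (right), by summit position, with one point per replicate and the mean ± SD beside them. Deep intronic summits averaged 56.3% and percentile 43.5, below promoter summits at 65.0% and 52.3 in each replicate.

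Peaks were densest in first introns and close to the 2000 bp limit. The sequence that could hold a summit under the rule, called eligible here, came to 41.4 Mb, with 13.8 deep intronic peaks per Mb. Taking the shortest intron around each summit, first introns held 295 peaks (51.7%) on 31.1% of the eligible sequence, or 22.7 ± 1.35 per Mb (SD over 3 replicates). Second introns held 172 peaks (13.7 ± 0.974 per Mb) and later introns 104 (6.07 ± 0.127 per Mb). When an intron that is first in any transcript was counted, 341 peaks lay in one. The density also fell with distance from the TSS, from 21.3 ± 1.25 per Mb at 2000 to 5000 bp to 14.8 ± 1.04 at 5000 to 10000 bp, 9.30 ± 0.876 at 10000 to 20000 bp and 4.01 ± 0.406 beyond 20000 bp. Neighbouring bins of distance and of intron number did not overlap over the replicates. First introns begin next to a TSS, so that both descriptions share their peaks. A few very long genes weigh on such densities: Myo81F, Pzl and CG17684 held 1940, 699 and 387 kb of eligible sequence, with 1 peak each. How far they set the low densities far from a TSS, in later introns and in the longest introns was not tested.

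Introns of middle length carried the highest density. The intron around a deep intronic summit had a median length of 13222 bp, with quartiles at 7017 and 25458.5 bp and extremes of 349 bp (retn) and 126467 bp (Ptp61F). Introns of 5000 to 10000 bp held 18.7 ± 2.18 peaks per Mb of eligible sequence, and those of 10000 to 20000 bp 17.4 ± 0.125, which do not differ beyond their spread. Introns up to 5000 bp held 11.3 ± 0.858 per Mb, those of 20000 to 50000 bp 14.3 ± 0.111, and those above 50000 bp 5.49 ± 0.464. In the longest class, 41 peaks lay on 18% of the eligible sequence. Within the intron, read in the direction of the host gene, the last 25% held 11.3 ± 0.493 peaks per Mb, against 13.8 ± 0.357, 14.9 ± 0.639 and 13.8 ± 1.42 in the parts of the same length before it.

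Strength and agreement did not follow distance in one direction. Peaks 10000 to 20000 bp from a TSS had a median optimal rank of 3308, and 41.4% of these 87 were found in all 3 replicates. Beyond 20000 bp the median rank was 2640.5 and 58.3% of 36 peaks were found in all. The most distant was in Myo81F, which encodes an unconventional myosin, 254766 bp from any TSS (3R, 2411972). It ranked 884, 703 and 831 in replicates 1, 2 and 3, within a narrow range. At the limit of the rule, the 5 peaks just inside it lay 2002 to 2028 bp from a TSS, in CG9171, px, hiw, mwh and RhoGAP18B, with optimal ranks between 721 and 4189. The 5 intronic peaks just outside lay 1946 to 1992 bp away, in Shrm, CCHa2-R, TpnC41C, hng3 and Ubx, with ranks between 788 and 4288.

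**Figure D3:**
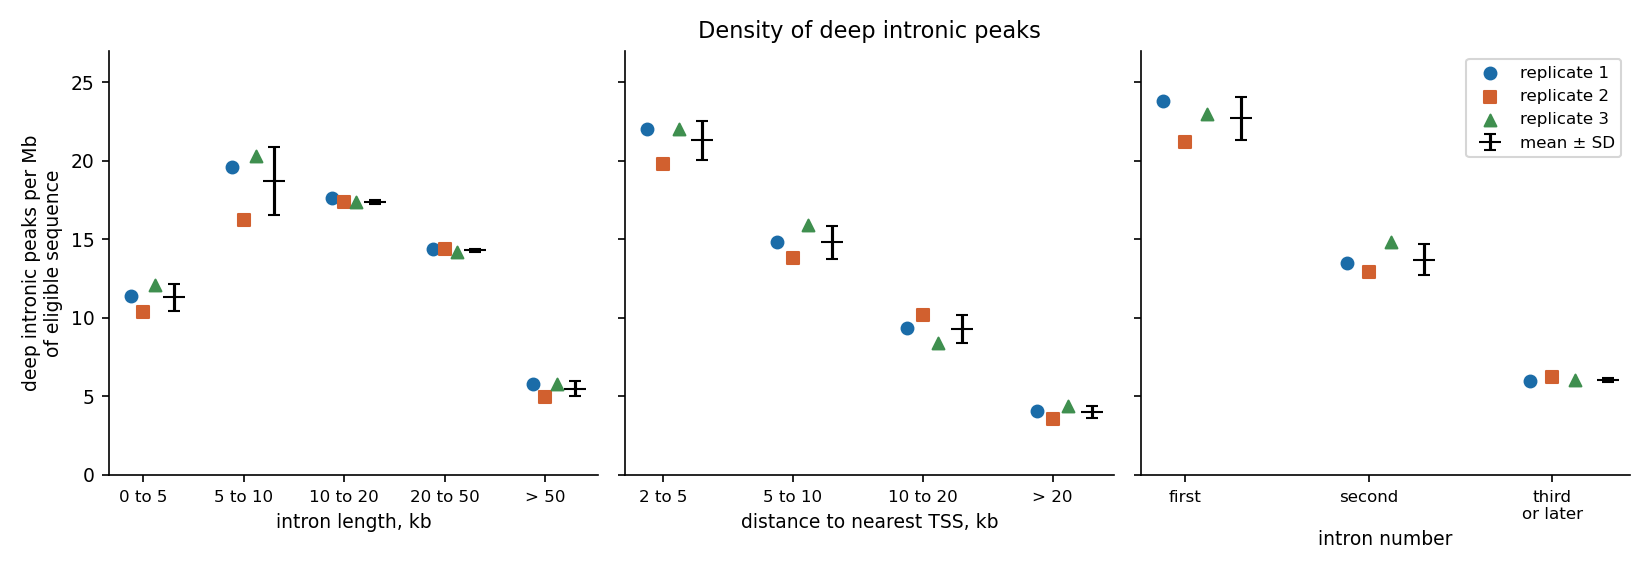
Deep intronic peaks per Mb of eligible sequence by intron length, by distance to the nearest TSS and by intron number, with one point per replicate and the mean ± SD. Density fell with distance to 4.01 per Mb beyond 20 kb, and first introns stood at 22.7 per Mb against 6.07 in introns after the second.

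By chromosome arm the density ran from 12.1 peaks per Mb on 3R and 12.9 on 3L to 15.6 on X and 16.1 on 2L. On 3R, the genes Myo81F and Pzl held 1940 and 699 kb of the 11.2 Mb of eligible sequence, with 1 peak each. The density of 3R without these genes was not counted, so its low value need not hold for the rest of the arm. Chromosome 4 had 42 optimal peaks, but none of them was deep intronic. Its 0.445 Mb of eligible sequence with a count of 0 allows a density of up to 6.74 per Mb (3 counts, counting error only). Another optimal summit lay within 2000 bp of 114 deep intronic peaks (20%), against 44.9% of near intronic, 24.9% of intergenic and 26.2% of promoter peaks, and within 500 bp of 15. The rule itself keeps promoter summits away from deep intronic ones, which can lower the first share. Within 10000 bp, 364 (63.7%) had another optimal summit, against 59.3% of intergenic and 72.0% of promoter peaks.

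The deep intronic peaks fell in 387 host genes, 374 of them protein-coding and 13 non-coding. Of the 4333 genes with any eligible sequence, 8.93% were hosts. In all, 538 peaks lay in 1 gene and 33 in 2 or more overlapping genes, where the host cannot be told. Most hosts (253) had 1 peak, 85 had 2, 24 had 3 and 25 had 4 or more. The gene sbb, which encodes a transcriptional corepressor, had 9, all in its first intron of 49364 bp on 2R. The 2 strongest stood 1353 bp apart and ranked 727, 305 and 423, and 339, 637 and 699, in replicates 1, 2 and 3. Of the 9, 4 were found in all replicates.

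Raf had 6 deep intronic peaks, all in 1 intron of 43637 bp and between 2262 and 11004 bp from the nearest TSS. The first 5 by strength ranked between 55 and 1150 in the optimal list and were found in all 3 replicates. The weakest ranked 3820, 5668 and 6508 in replicates 1, 2 and 3, which left it outside the strongest peaks of replicates 2 and 3. In ush, 4 of 5 peaks were found in all replicates, in 2 introns of 13185 and 34033 bp. The others with 5 were kirre, an immunoglobulin protein of muscle cell fusion, px, a gene of wing vein patterning, tara, a regulator linked to Trithorax group proteins, and jing, a zinc finger transcription factor. In jing 1 of the 5 was found in all replicates, although its intron of 110416 bp was among the longest. The list of 10 hosts with most peaks closed with Hr4, Eip75B and lncRNA:CR44357, which had 4 each.

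Promoters of the host genes were bound more often than those of all genes with eligible sequence, in each replicate. A promoter was called bound when any TSS of the gene had an optimal summit within 500 bp, which no deep intronic summit can be. Of the 387 hosts, 198 (51.2%) had a bound promoter, against 33.2% of the 4333 genes with eligible sequence. With each replicate's own peaks the shares were 54.5%, 50.9% and 49.9% for hosts, against 33.2%, 32.8% and 32.5%, a mean difference of 18.9 percentage points (positive in 3 of 3 replicates, exact two-sided sign-flip p = 0.25, the smallest possible). A gene with more TSSs has more chances to be called bound, and genes were not matched for their number of TSSs. Hosts have more eligible sequence than other genes. Among genes with 2000 to 10000 bp of it, 61 of 111 hosts (55.0%) and 301 of 962 other genes (31.3%) had a bound promoter. With 10000 to 30000 bp the shares were 54.8% of 146 hosts and 24.4% of 480 others, and above 30000 bp 45.2% of 126 hosts and 24.2% of 244 others. Of the 4 hosts with 2000 bp or less, none had a bound promoter, against 33.8% of 2260 other genes.

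Developmental genes as a whole hosted about the share of peaks that their share of eligible bases would give. The 3 developmental lists (transcription factors, signalling pathway genes, and axon guidance and cell adhesion genes) hosted 128 of the 571 peaks (22.4%), against 20.6% of the eligible bases. The share was 23.9%, 21.7% and 21.4% in replicates 1, 2 and 3, and the mean of 22.3% ± 1.39 (SD, n = 3) exceeded the share of bases by less than 2 SD. The 3 lists differed from each other, and 379 of the peaks were in no list at all. The lists are described by counts, with no test. They were not matched for intron length or distance from a TSS, with which the density of peaks also changed.

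Developmental transcription factors hosted 57 peaks (9.98%) on 6.02% of the eligible bases, or 21.9 ± 0.464 per Mb over the replicates, against 13.5 ± 0.563 per Mb over all genes. Of 151 such genes with eligible sequence 32 were hosts (21.2%). The median optimal rank of these peaks was 2632, against 2622 for all deep intronic peaks. In all replicates 33 of them (57.9%) were found, against 54.8% of all deep intronic peaks. The strongest stood in ush, Antp, sim and pnt. In Antp, the Hox gene of thoracic segments, 4 peaks lay in first introns and all 4 also inside CG46458, and the strongest (3R, 6912373) ranked 673, 1020 and 385 in replicates 1, 2 and 3. The peak in sim, the regulator of the ventral midline (3R, 13068247), ranked 639, 850 and 608. That in pnt, an ETS factor downstream of Ras signalling (3R, 23326502), ranked 1326, 778 and 563.

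Signalling pathway genes hosted 39 peaks (6.83%) on 2.88% of the bases, or 30.8 ± 5.71 per Mb. The list's hosts numbered 23 of 96 (24.0%), and its strongest peaks were in Raf, aos, fz and vn. The peak in vn, a ligand of EGFR (3L, 5824239), ranked 258, 1063 and 283 in replicates 1, 2 and 3. Of the 39 peaks, 22 were found in all replicates (56.4%), about the 54.8% of all deep intronic peaks. Raf alone had 6 of the 39.

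Axon guidance and cell adhesion genes, which have some of the longest introns, had fewer peaks than their length: 32 peaks (5.6%) on 11.8% of the bases, or 6.91 ± 0.970 per Mb. Their strongest peaks were in kirre, dlp, a heparan sulphate proteoglycan, caps, a leucine-rich repeat receptor, and mew, an integrin subunit. Similar densities were measured in neuronal channel and synapse genes (15 peaks, 4.64 ± 0.483 per Mb) and in cytoskeleton and junction genes (18 peaks, 6.64 ± 1.35 per Mb). Of the 2.81 Mb of eligible sequence in cytoskeleton and junction genes, Myo81F alone held 1940 kb, with 1 peak. The density without Myo81F was not counted. With most of the sequence but only 1 of the 18 peaks in that gene, the low value does not describe the other genes of that list. In the synapse list, the peak in Snap25, a SNARE protein of vesicle release (3L, 24231556), ranked 678, 358 and 678, and nAChRalpha4, bru2 and Pde11 followed. In the cytoskeleton list, Myo81F led, followed by px, which is known from wing veins, Myo10A and cno, an adherens junction protein.

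The ecdysone response genes, which act downstream of the steroid hormone that times moults and metamorphosis, hosted several strong peaks. The list had 19 peaks (3.33%) on 1.46% of the bases, or 34.7 ± 5.96 per Mb over the replicates. Their median optimal rank was 1096, and 16 of the 19 (84.2%) were found in all replicates, against 54.8% of all deep intronic peaks. Of 22 such genes with eligible sequence 8 were hosts (36.4%): Hr4, Eip75B, Hr3, Eip63E, E23, Eip74EF, tai and ftz-f1. All 4 peaks of Hr4 and all 4 of Eip75B were found in every replicate. The Eip75B peaks ranked 326, 770, 1002 and 1721 in the optimal list, and the strongest (3L, 18019830) ranked 525, 212 and 452 in replicates 1, 2 and 3. In Hr3, an orphan nuclear receptor on 2R, the strongest of 3 peaks (10230863) ranked 509, 956 and 467 and also lay inside CG12912. The 3 peaks in ftz-f1 were weak, with optimal ranks between 3539 and 3704.

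Smaller lists gave few peaks. Polycomb and Trithorax group genes, which keep developmental genes off or on, had 11 (46.6 ± 14.7 per Mb on 0.207 Mb), of which 5 were in jing, a gene that the transcription factor list holds as well. The strongest of the list were in Psc (2R, 12975546), with ranks of 407, 314 and 706, and in trx (3R, 14283891), with ranks of 531, 247 and 845. RNA processing genes had 5 peaks, in Rbfox1, shep, how and mbl, or 13.4 ± 1.45 per Mb. Housekeeping genes of translation and respiration had 4, in eIF4EHP, eIF5B and ND-MLRQ, or 35.9 ± 11.3 per Mb, a density on 0.102 Mb that overlapped those of the signalling and ecdysone lists over the replicates. Insulator and architectural protein genes had none on 0.0496 Mb of eligible sequence.

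**Figure D4:**
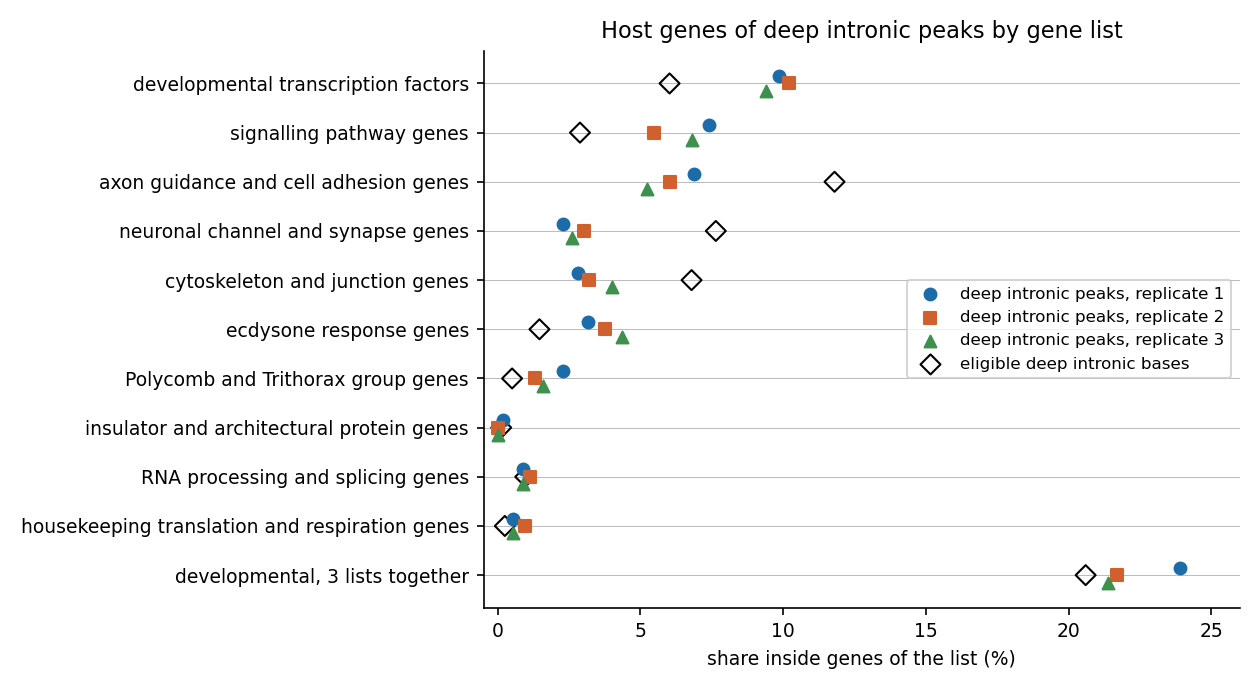
Share of deep intronic peaks inside the genes of each list (%), with one point per replicate, beside the share of eligible deep intronic bases in the same genes (open diamonds). Transcription factor, signalling, ecdysone response, Polycomb and Trithorax group, and housekeeping genes lie above their share of bases in every replicate. Axon guidance, synapse and cytoskeleton genes lie below it, the last with 1940 kb of their 2.81 Mb in Myo81F alone. The 3 developmental lists together stand at 21.4% to 23.9% against 20.6%.

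The base composition changed sharply at the summit. Over windows of 50 bp to each side of deep intronic summits G+C averaged 35.7%, against 40.9% and 41.2% in windows 500 bp to either side and 40.1% in all 398393 tiles of eligible sequence. Among the 571 peaks, 395 (69.2%) had less G+C at the summit than in the mean of their flanks. No such count is given here for the other classes, so the share cannot be called particular to deep intronic peaks. The difference was -5.30, -5.51 and -3.99 percentage points in replicates 1, 2 and 3, a mean of -4.93 (SD 0.825, exact two-sided sign-flip p = 0.25). In windows of 51 bp the profile was lowest at the summit itself (35.0%), stood at 42.8% and 42.5% 250 bp away and at 40.1% and 40.0% at 1000 bp. Promoter summits had a different profile, with 40.9% at the summit and minima of 37.6% and 37.9% at 100 bp to either side. Measured over the wider windows, promoter summits also had less G+C than their flanks, by a mean difference of -4.52 points (SD 0.851), and the dip at deep intronic summits differed from it by -0.41 points (SD 0.278, 3 of 3 replicates, exact p = 0.25). On the same measure the deep intronic dip differed from that at intergenic summits by -2.74 points (SD 0.802, 3 of 3 replicates, exact p = 0.25), and it differed from that at near intronic summits by -0.239 points (SD 0.719, exact p = 0.75). Repeat-masked bases made up 17.5% of the summit windows, against 24.3% of the tiles. The share was 19.1% and 18.8% in the flanks, and lower than at deep intronic summits over all optimal peaks (14.4%).

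**Figure D5:**
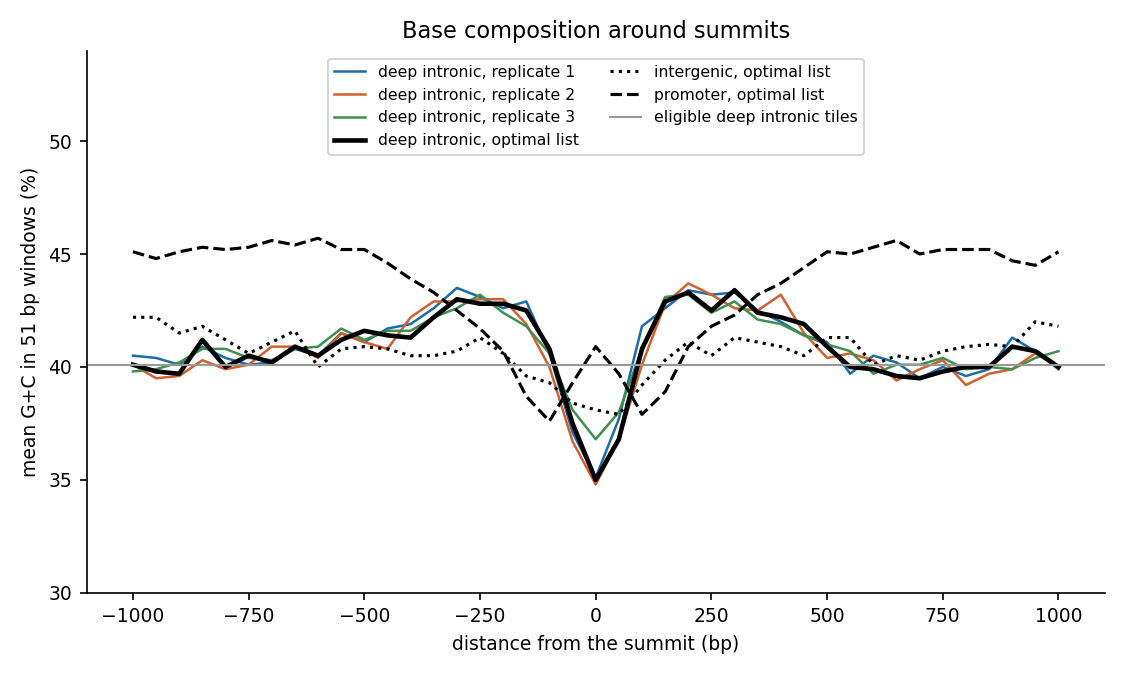
Mean G+C (%) in windows of 51 bp against distance from the summit, for deep intronic peaks of each replicate and of the optimal list, with intergenic and promoter peaks of the optimal list and the mean of all eligible tiles. Deep intronic summits dip to 35.0% in the optimal list and to 34.8% to 36.8% in the replicates, between shoulders near 43%, while promoter summits are higher at the centre than 100 bp away.

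Few of the words of known DNA-binding proteins were more frequent at these summits. Of 25 words searched on both strands of the same window, 3 (12%) were at least 1.5 times as frequent as in the tiles both in the optimal list and in each replicate, and none was as much rarer. The word of the DNA replication-related element, TATCGATA, bound by Dref and BEAF-32 and typical of housekeeping promoters, was in 4 deep intronic windows (0.701%), against 0.218% of tiles and 7.04% of promoter peaks. The Motif 1 core GGTCACAC, another promoter word, was in 3 (0.525%), against 0.149% of tiles and 6.51% of promoter peaks. Both rest on so few peaks that 1 peak would change them. The CTCF core GGTGGCGC was in 8 (1.4%), against 0.171% of tiles, 3.46% of intergenic peaks, 0.875% of promoter peaks and 1.31% of all optimal peaks. In the replicates it was in 1.23%, 1.32% and 1.05% of deep intronic windows, so it was about as frequent there as over the whole list. All 3 words together were in 15 windows.

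Words of embryonic regulators were close to their background. The Zelda word CAGGTAG, of the activator of the early zygotic genome, was in 2 windows (0.350%), against 0.434% of tiles. The GATA word AGATAA was in 7.88% against 5.97%, the homeodomain word TAATTA in 7.01% against 7.44%, GAGAG of GAGA factor in 13.8% against 11.4%, and GCCAT of pho in 15.4% against 19.8%. The Twist E-box CATATG was in 5.43% against 3.00%, but in 4.05%, 3.58% and 5.57% in replicates 1, 2 and 3. A word that is absent from a window says nothing of the factor.

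Short words with no name attached were also counted. Of 596 words of 6 bases present in at least 5% of the windows, 36 (6.04%) were at least 1.5 times as frequent as in tiles in the optimal list and in each replicate. The 596 were kept, out of 2080 words seen, for being frequent in these same windows, which favours raised words, so the count is only a description. The highest ratios to the tiles were those of ACAGTG and ACCTAT (2.55 each). ACAGTG was in 53 windows (9.28%; 8.45%, 9.60% and 10.8% in replicates 1, 2 and 3), against 3.68% of flanks, 3.64% of tiles and 9.01% of all optimal peaks. ACCTAT was in 35 (6.13%), against 2.40% of tiles and 3.43% of promoter peaks, and GTAAAC in 60 (10.5%), against 4.61% of tiles and 6.48% of promoter peaks. GCTGTA was in 6.30% against 2.96% of tiles, and CTAAGA in 5.95% against 2.82%. ACAGTG was thus about as frequent at deep intronic summits as over the whole list. At near intronic and intergenic summits, ACCTAT was in 3.53% and 5.19% and GTAAAC in 12.2% and 4.98%. There GCTGTA was in 4.00% and 6.28%, and CTAAGA in 4.94% and 4.55%. GTAAAC was thus more frequent at near intronic summits, and GCTGTA about as frequent at intergenic ones, so neither is particular to deep intronic peaks.

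Words of 8 bases were examined after the others had been seen, and those of highest ratio among words in at least 2% of the windows resembled the CTCF core. GATGGCGC was in 12 deep intronic windows (2.10%), against 0.159% of tiles, a ratio of 13.2, and AGATGGCG in 16 (2.80%), against 0.236%. The words overlap: one is the other moved by 1 base, and the windows at Eip75B and RapGAP1 hold both. Each also contains the pho word GCCAT on the other strand, so the resemblance is not to the CTCF core alone. Any of these or the CTCF core was present in 24 windows (4.2%), and in 3.35%, 3.58% and 3.48% in replicates 1, 2 and 3. The share was 0.512% of tiles, 1.88% of near intronic, 7.14% of intergenic, 2.45% of promoter and 3.24% of all optimal peaks. Of the 24, 13 were found in all 3 replicates (54.2%), about the 54.8% of all deep intronic peaks. Their median optimal rank was 2333.5, against 2622 for all deep intronic peaks.

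Hosts of the 24 peaks with a CTCF-type word included genes of the Hox complexes and of the ecdysone response. Eip75B had 2 and Eip74EF 1. In Antp the peak with such a word was its strongest. In the bithorax complex, lncRNA:iab8 had one (3R, 16919263), with ranks of 2784, 2644 and 2162 in replicates 1, 2 and 3, and lncRNA:bxd another (3R, 16748754), with ranks of 2067, 2034 and 4196. In the bxd window printed above, AGATGGCG occurs once on each strand. RapGAP1, an activator of Rap1 GTP hydrolysis (2L, 7535095), ranked 890, 434 and 272, and Jupiter, a microtubule protein (3R, 11613332), 681, 753 and 929. The optimal list also placed such peaks in retn, dnt, fz, Syn and Nrt. These hosts are named after their values were seen, and the presence of a word does not show that CTCF or pho was bound.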

How the data were processed

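ChIP-seq peak lists of 3 replicates and an optimal list were used, all on dm6. Per the deposited file lists, each replicate list of peaks and background came from its own alignments and a control file, and the optimal list from IDR of these lists and one of pooled reads. Which aligner, caller and IDR threshold were used is not stated in the sources at hand. The score of each peak is the authors' own, on a scale that differs between lists, and was used for ranks within a list. The −log10 q deposited by the authors entered no test. Summits were placed at the offset the authors give, and read counts were not used here, so no interval for counting error of a peak can be given.

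The reference was Ensembl BDGP6.54 (release 115) without transposable elements, with 18164 genes and 23581 TSS positions on 6 chromosome arms, and the matching RefSeq genome. Older symbols in the gene lists were matched through RefSeq synonyms, which left out B, stich1, Dl, Tor, calypso, SA and Z4. Peaks were classed as promoter (500 bp), near or deep intronic (2000 bp), intergenic or exonic. The 4417 strongest peaks of each replicate were compared, with summits matched within 150 bp. Where several entries matched, the strongest gives the rank. The sequence at 1 strong peak is not reported here. Differences between classes were tested over the 3 replicates with an exact two-sided paired sign-flip test, whose smallest p is 0.25. The test functions were checked on simulated data. Words were counted in windows of 50 bp to each side of the summit, with all non-overlapping windows of eligible sequence as background. Python 3 with numpy and pandas was used.

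Named genes are the hosts of the 20 peaks of highest score, the 10 hosts with most peaks (ties by summed score), up to 4 hosts with the strongest peak in each list, and the 5 peaks on each side of the 2000 bp limit. Other genes, such as the further ecdysone hosts, the hosts of peaks with a printed or CTCF-type word and those at the extremes of a range, were named after their values were seen. Members, gene lists and words were chosen with earlier results of these data known. Whether the replicates came from separate collections is not given, so p-values measure the spread between these samples, which may be technical in part.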

Additional observations from a re-analysis of the deposited data

How the results depend on the processing

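The mean differences of deep intronic from promoter peaks in signal percentile and in agreement stayed negative under every alternative run, but among the 2000 strongest peaks that in agreement was -1.35 points (exact p = 0.75), and the replicates did not all go one way. The G+C dip, whose alternatives were chosen after seeing the data, kept its direction. The number of deep intronic peaks was 287 beyond 5000 bp and 231 in the stronger 50% of the list, against 571. The share found in all replicates was 39.4% with matching within 50 bp, 23.6% among the 2000 strongest peaks, 97.2% with all entries of the replicate lists and 51.9% beyond 5000 bp, against 54.8%, and it ran from 64.1% to 65.1% when 1 replicate was left out, since fewer lists had then to match. The developmental share was 24.7% beyond 5000 bp and 21.0% with each intron counted once, against 22.4%, and 21.5% to 23% with 1 replicate left out. Hosts with a bound promoter came to 56.3% with promoters of 1000 bp and 55.2% for peaks found in all replicates, against 51.2%, and to 52.6% to 54.5% with 1 replicate left out. The same 3 words passed under each alternative, and at most 1 other joined them, but against the flanks TATCGATA and GGTCACAC were set against a share of 0 and had to pass. The sign-flip test cannot give a p under 0.25 with 3 replicates, and without read counts no counting error of a peak's strength can be given.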
